A study of Sus scrofa with 12 samples.

Results

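The 10 genes described here belong to the Wnt pathway and comprise the secreted inhibitors SFRP1, SFRP2 and SFRP5, the receptor and membrane regulators LGR5, RNF43 and ZNRF3, the scaffold AXIN2, the transcription factors TCF7L2 and LEF1 and the target gene TBX3. They were looked up by name in the symbol field of the array annotation, and LGR5, for which that field had no entry, from the symbol in brackets of its mRNA description. All 10 genes were found, among 25385 transcript clusters, that is, groups of probes that each represent 1 gene or locus. Where a symbol had several clusters, the one with the highest mean signal over the pigs was used, and the others are given beside it. The choice of cluster rested only on that mean, but SFRP1 entered the set because the study had named it among the differentially expressed genes. Its group difference is therefore given as a description without a test.

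The data are liver RNA of 12 male crossbred pigs of Pietrain and a cross of German Landrace with German Edelschwein, aged 5 weeks at the start, each measured on 1 Affymetrix porcine array. In group CON 6 pigs received the vehicle, a solution of NaHCO3, by mouth. Group PIV, also of 6 pigs, received sodium pivalate dissolved in the vehicle at a daily dose of 30 mg per kg body weight over 28 days. All pigs received the same diets, which were low in carnitine, and were killed in the fed state. Pivalate is excreted as its carnitine ester, and the treatment serves as a model of secondary carnitine deficiency, and the question of the comparison is how this state affects the transcripts of the liver. The pigs were kept in pairs, and the sources used here do not give the pen of each pig. The tests take every pig as independent, and their p-values would be too small if pen mates resembled each other.

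In the canonical Wnt pathway, secreted Wnt proteins bind Frizzled receptors together with LRP co-receptors, which stops the breakdown of beta-catenin by a complex of AXIN, APC and the kinase GSK3. Beta-catenin then acts with factors of the TCF and LEF family on target genes, several of which, such as AXIN2, RNF43 and ZNRF3, limit the signal in turn. In the liver of mice, Wnt proteins from endothelial cells of the central vein keep the pathway active in the hepatocytes around that vein, where AXIN2, LGR5 and TBX3 are expressed and where glutamine synthetase and several cytochrome P450 enzymes are found.

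The values are log2 signals after Robust Multichip Analysis (RMA), a normalization across all arrays made by the authors. Array medians lay between 4.75 and 4.88, and pairs of arrays correlated across transcripts at 0.977 to 0.991. The hepatocyte markers fitted the tissue label, since all 10 measured genes of that list, ALB and TTR among them, had a log2 signal of 5 or more in at least 6 of the pigs. Transcripts that did not reach this level are called dim, a limit set without a measured background. It was reached by 6 of the Wnt genes, and SFRP2, SFRP5, AXIN2 and LEF1 were dim. CON pig K22 had the lowest array weight (0.52), followed by CON pig K42 (0.66). Because arrays 1 to 6 all held CON pigs and arrays 7 to 12 all PIV pigs, the order of the arrays cannot be told apart from the groups. As in the methods of the study, a transcript passed the filter if its fold change (FC) was over 1.2, up or down, and its unadjusted p, here from limma, was below 0.05. Of all transcripts 462 passed (1.82%), 262 of them higher (1.03%) and 200 lower (0.788%) in group PIV. With array medians set equal, 194 were higher and 266 lower. The share past the filter was 1.39% of the transcripts that were not dim and 2.19% of the dim ones. No transcript passed after Benjamini-Hochberg adjustment with limma (smallest adjusted p = 0.788), whereas 921 (3.63%) had an unadjusted p under 0.05. In tissue RNA, fewer cells of a type and less RNA per cell cannot be told apart.

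Of the 10 Wnt genes, 1 was inside the filter, SFRP1, which was lower in group PIV and was picked on this contrast. The share of all transcripts past the filter was 1.82% in either direction and 0.788% in that of SFRP1. The other 9 did not pass. The log2 FC was below 0 for 7 of the 10 genes and above 0 for 3, with a median of −0.03, against a median of 0.01 over all transcripts, of which 47.7% were below 0.

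**Figure D1:**
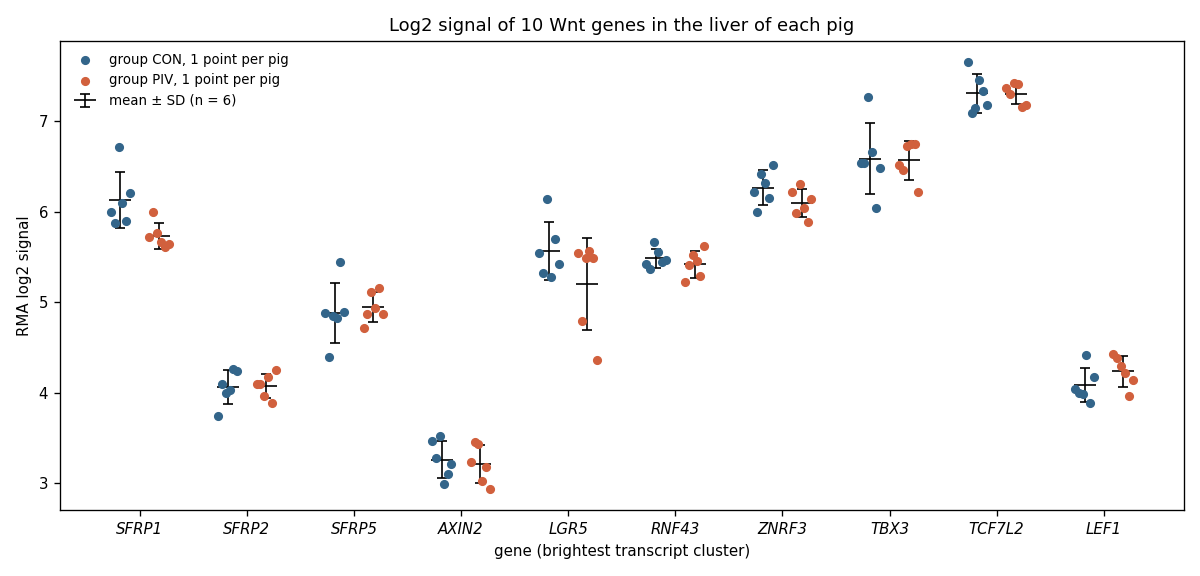
RMA log2 signal of the 10 Wnt genes in the liver of each pig, with group CON in blue and group PIV in orange (1 point per pig), and black bars for the mean ± SD of 6 pigs. For SFRP1, 5 of the 6 pigs of group PIV lie below every pig of group CON, and for the other genes the groups overlap more widely. Heights of different genes are not comparable, because each gene has its own probes.

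SFRP1, SFRP2 and SFRP5 encode secreted proteins with a domain like that of the Frizzled receptors, by which they bind Wnt proteins and keep them from their receptors. The log2 signal of SFRP1 in group CON was 6.00 in pig K1, 6.09 in K3, 5.90 in K4, 5.87 in K22, 6.71 in K23 and 6.20 in K42. In group PIV it was 5.72 in pig P10, 6.00 in P12, 5.76 in P29, 5.66 in P30, 5.61 in P31 and 5.64 in P50. Pig K23 was the highest of all and P12 was the only pig of group PIV within the range of group CON. Group CON averaged 6.13 ± 0.31 and group PIV 5.73 ± 0.14 (SD, n = 6 each), which gives a log2 FC of −0.40 with a limma standard error (SE) of 0.13 (FC −1.32). A separation of this kind, at least 5 of the 6 pigs of group PIV below every pig of group CON, was seen for 128 of all transcripts (0.504%). Without pig K23 the FC was −1.22, close to the limit of the filter, and in the other settings that refitted the model with this cluster it was between −1.3 and −1.37. These refits use the values on which SFRP1 was picked. The cluster has 23 probes and is placed by the array annotation on chromosome 17 from 10336026 to 10341656, on a genome build that the sources used here do not name, as for all coordinates below.

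A second transcript cluster of 22 probes carries SFRP1 only in its mRNA description and has no chromosomal position. The annotation marks it as cross-hybridising in its mRNA field, so its values are uncertain. Its log2 signal was 4.48 to 5.90 in group CON (median 4.88) and 4.02 to 5.47 in group PIV (median 4.84), and the groups overlapped almost entirely. Pig K23 was again highest (5.90), followed by P12 (5.47), and P29 was lowest (4.02). Its log2 FC, −0.20 (SE 0.23), was in the same direction as the first cluster but with an interval (95%) from −0.68 to 0.29. In group CON both clusters ranked pig K23 at the top and K22 at the bottom, with a Pearson correlation of 0.97 over 6 pigs (exact permutation test, p = 0.00139), whereas in group PIV it was 0.35 (exact permutation test, p = 0.454). Over all 12 pigs, where the group difference enters, r was 0.67 and Spearman's rho 0.38, given here without a test. Without pig K23 r was 0.31, and without pigs K23 and K42 it was 0.24. The relation over all pigs thus rested largely on pig K23.

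**Figure D2:**
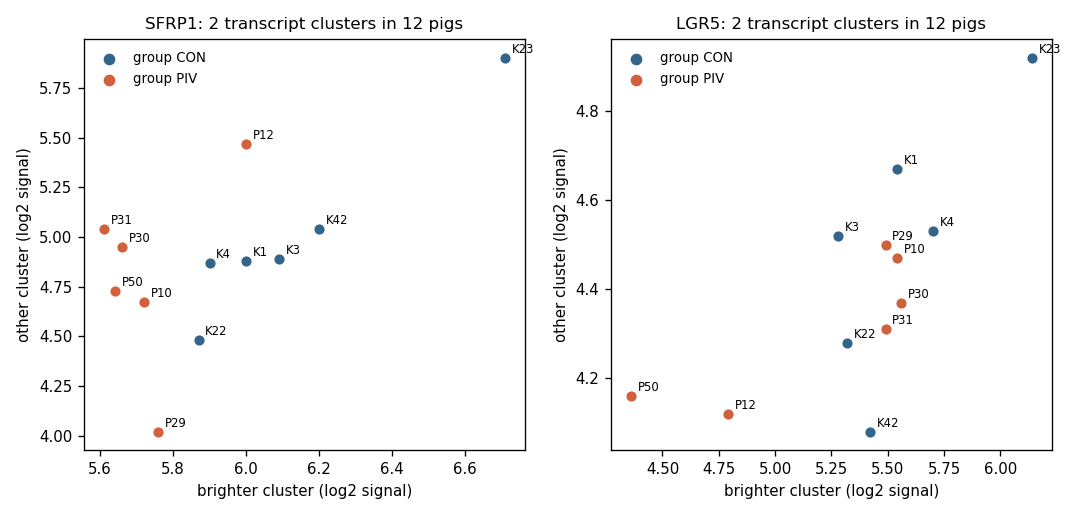
Log2 signal of the brighter cluster (horizontal axis) against that of the other cluster (vertical axis) for SFRP1 on the left and LGR5 on the right, 1 point per pig, with group CON in blue and group PIV in orange. In both genes pig K23 is highest on both axes, and for LGR5 pigs P50 and P12 are lowest on the horizontal axis.

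SFRP2 and SFRP5 did not pass the filter. SFRP2 had 2 clusters on chromosome 8 with the same mRNA, the brighter on the plus strand from 64588167 to 64596072 (25 probes) and the other on the minus strand from 64470528 to 64478239 (10 probes). The brighter one lay between 3.74 and 4.26 in group CON (median 4.06) and between 3.89 and 4.25 in group PIV (median 4.10), so that the groups lay on top of each other. The annotation gives it cross-hybridisation type 3, against type 1 for the other clusters of the 10 genes, so its values are uncertain. The clusters marked as cross-hybridising in the mRNA field also have type 1, so the 2 fields of the annotation differ for them. Its log2 FC was 0.02 (SE 0.10, 95% interval −0.19 to 0.22, limma adjusted p = 0.9996), and that of the other cluster was 0.06 (SE 0.13). The clusters of SFRP2 did not vary together between pigs (r = 0.07 and rho = −0.03, permutation tests, p = 0.838 and 0.936), at dim signals. Without the 2 pigs farthest in the brighter cluster r was 0.10, and it was −0.26 in group CON and 0.50 in group PIV.

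SFRP5, on chromosome 14 from 113963369 to 113968675, reached a log2 signal of 5 in only 3 pigs. It was 4.88 in pig K1, 4.83 in K3, 5.44 in K4, 4.39 in K22, 4.85 in K23 and 4.89 in K42 of group CON. In group PIV the values ran from 4.72 to 5.16 (median 4.91). The highest and the lowest pig of all 12 were thus both in group CON, K4 and K22, and the SD of that group (0.34) was above that of 91% of all transcripts. The log2 FC was 0.06 (SE 0.14, 95% interval −0.22 to 0.35, limma adjusted p = 0.9996).

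**Figure D3:**
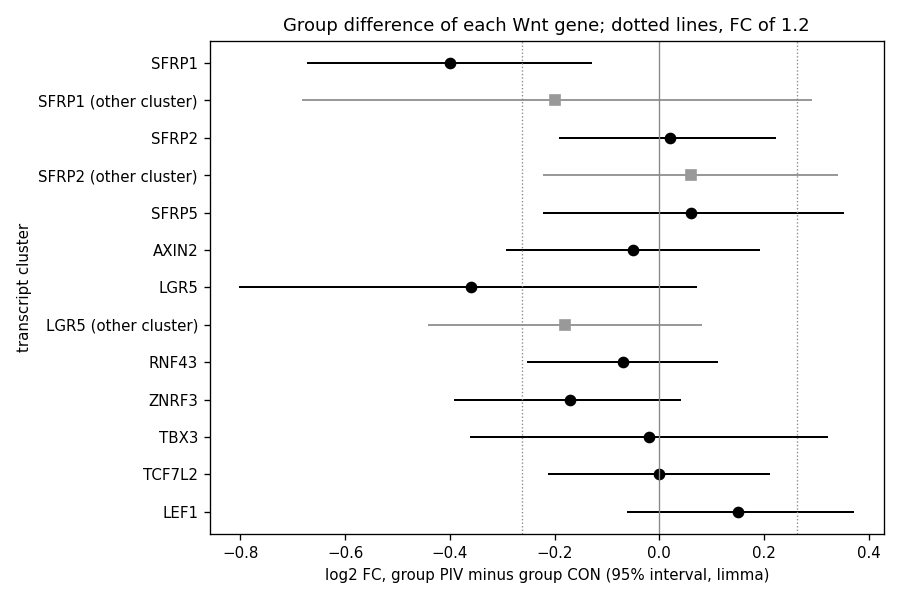
Log2 FC of each Wnt gene (horizontal axis, group PIV minus group CON) with its 95% interval from limma, brightest cluster as a black circle and any other cluster of the same gene as a grey square, with dotted lines at a FC of 1.2. SFRP1 lies to the left of the left dotted line at −0.40, LGR5 is next at −0.36 with an interval that crosses 0, and the intervals of RNF43, SFRP2, TCF7L2 lie inside the dotted lines.

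LGR5, RNF43 and ZNRF3 work together at the cell surface. The ubiquitin ligases RNF43 and ZNRF3 remove Frizzled receptors from the membrane, and R-spondins, bound to LGR receptors, take these ligases away and so strengthen the Wnt signal. LGR5 had the widest spread of the 10 genes in group PIV. Its brighter cluster, of 10 probes, had log2 signals of 5.54 in pig K1, 5.28 in K3, 5.70 in K4, 5.32 in K22, 6.14 in K23 and 5.42 in K42. In group PIV they were 5.54 in pig P10, 4.79 in P12, 5.49 in P29, 5.56 in P30, 5.49 in P31 and 4.36 in P50. Pigs P50 and P12 were below every pig of group CON, and the other 4 lay within its range. Group CON averaged 5.57 ± 0.32 and group PIV 5.20 ± 0.51 (SD, n = 6 each), the latter SD being above that of 98.8% of all transcripts.

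The log2 FC of LGR5 was −0.36 (SE 0.20, 95% interval −0.80 to 0.07, FC −1.29). It exceeded the fold limit but not the p limit of the filter (limma p = 0.0939, adjusted p = 0.9996, exact permutation test over pigs, two-sided, p = 0.21). Leaving out pig P50 brought it to −0.19. The second LGR5 cluster, of 20 probes, lay at 4.08 to 4.92 in group CON (median 4.52) and at 4.12 to 4.50 in group PIV (median 4.34), with a log2 FC of −0.18 (SE 0.12). Between the clusters r was 0.74 and rho 0.67 over 12 pigs (permutation tests, p = 0.00734 and 0.0199, adjusted over the 3 genes with 2 clusters 0.022 and 0.0596). It was 0.72 without pigs P12 and P50, 0.74 within group CON and 0.84 within group PIV. Both clusters are marked as cross-hybridising in the mRNA field, though of type 1, and have no chromosomal position in the annotation, so LGR5 values are uncertain.

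RNF43 had the smallest SD of the 10 genes in group CON. Its log2 signal was 5.37 to 5.66 in group CON (median 5.45) and 5.22 to 5.62 in group PIV (median 5.43), with pig K23 highest and P10 lowest. That SD (0.10) was above that of only 10.3% of all transcripts. RNF43 had a log2 FC of −0.07 (SE 0.08, 95% interval −0.25 to 0.11), so that the interval excludes a FC of 1.2 in either direction, its bounds being FCs of −1.19 and 1.08. RNF43 lies on chromosome 12 from 32653791 to 32668228.

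ZNRF3, on chromosome 14 from 46709925 to 46717776, was 6.21 in pig K1, 6.32 in K3, 6.15 in K4, 5.99 in K22, 6.41 in K23 and 6.51 in K42. In group PIV it was 6.21 in pig P10, 5.98 in P12, 6.30 in P29, 6.04 in P30, 5.88 in P31 and 6.14 in P50. Pigs P12 and P31 were below every pig of group CON, and the other pigs overlapped. For ZNRF3 the log2 FC was −0.17 (SE 0.10, 95% interval −0.39 to 0.04, limma p = 0.103, adjusted p = 0.9996, exact permutation test over pigs, p = 0.11).

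AXIN2 and TBX3 are used as readouts of the pathway, since beta-catenin induces them in many tissues. AXIN2, the scaffold of the complex that breaks down beta-catenin, was dim, with log2 signals of 2.99 to 3.52 in group CON (median 3.25) and 2.94 to 3.46 in group PIV (median 3.21). Pig K23 was highest and P50 lowest. AXIN2 had a log2 FC of −0.05 (SE 0.11, 95% interval −0.29 to 0.19, limma adjusted p = 0.9996). The cluster lies on chromosome 12 from 10334242 to 10337719.

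TBX3, a T-box repressor of transcription, was 6.53 in pig K1, 6.66 in K3, 6.04 in K4, 6.53 in K22, 7.26 in K23 and 6.48 in K42. In group PIV it lay between 6.21 in pig P50 and 6.75 in P31 (median 6.62), within the range of group CON. The highest and the lowest of the 12 values were in group CON, whose SD (0.40) was above that of 95.1% of all transcripts, while the SD of group PIV was 0.22. TBX3 had a log2 FC of −0.02 (SE 0.16, 95% interval −0.36 to 0.32, limma adjusted p = 0.9996), and without pig K23 it was 0.12. TBX3 lies on chromosome 14 from 37979782 to 37990959.

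TCF7L2 and LEF1 bind DNA and recruit beta-catenin. TCF7L2, on chromosome 14 from 129166368 to 129394453, had log2 signals of 7.09 to 7.65 in group CON (median 7.26) and 7.15 to 7.42 in group PIV (median 7.33). Its log2 FC was 0.00 (SE 0.10), and the 95% interval of −0.21 to 0.21 corresponds to FCs of −1.16 to 1.16. LEF1, on chromosome 8 from 97663451 to 97777746, was dim, at 3.89 to 4.42 in group CON (median 4.02) and 3.96 to 4.43 in group PIV (median 4.26). Pigs P10 and K3 were highest, at 4.43 and 4.42. The log2 FC of 0.15 (SE 0.10, 95% interval −0.06 to 0.37) did not pass (limma p = 0.154, adjusted p = 0.9996, exact permutation test over pigs, p = 0.167).

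LEF1 is also a gene of T cells, and the list of T and NK cell markers lay in the same direction. All 15 measured markers, LEF1 included, had a log2 FC above 0, with a median of 0.15 and a range of 0.05 to 0.37, while 52.3% of all transcripts were above 0 with a median of 0.01. Of the 15 markers 1, PRF1, which was dim, passed the filter (6.67%, against 1.82% of all transcripts in either direction and 1.03% in its direction). The mean log2 signal of the list was 4.42 to 4.92 in the CON pigs and 4.75 to 4.99 in the PIV pigs. Of the 15 markers, 7 were not dim. Across pigs, LEF1 and the mean of the other 14 markers had r = 0.23 and rho = 0.16 (permutation tests, p = 0.468 and 0.617, adjusted p = 0.985 and 0.943). It was 0.26 within group CON, −0.37 within group PIV and 0.20 without pigs K3 and P10. Whether T cells account for the group difference of LEF1 was not tested.

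The highest pig was the same for several of the genes. CON pig K23 had the highest log2 signal of the 12 pigs in 5 of the 10 Wnt genes, SFRP1, AXIN2, LGR5, RNF43 and TBX3, and in 6.19% of all transcripts. For SFRP1, LGR5 and TBX3 pig K23 lay 0.78, 0.76 and 0.69 above the mean of the 12 pigs on the log2 scale. Pig K23 was also highest in the second clusters of SFRP1 and LGR5, and the number of 5 genes was the same when array medians were set equal or quantile normalization was applied again. Of the other 90 Wnt pathway genes measured, K23 was highest in 4. The array weight of K23 was 1.04, which did not set it apart. At the other end, PIV pig P50 was lowest in AXIN2 and LGR5 and P31 in SFRP1 and ZNRF3, and pigs K4 and K22 of group CON were lowest in 2 genes each.

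**Figure D4:**
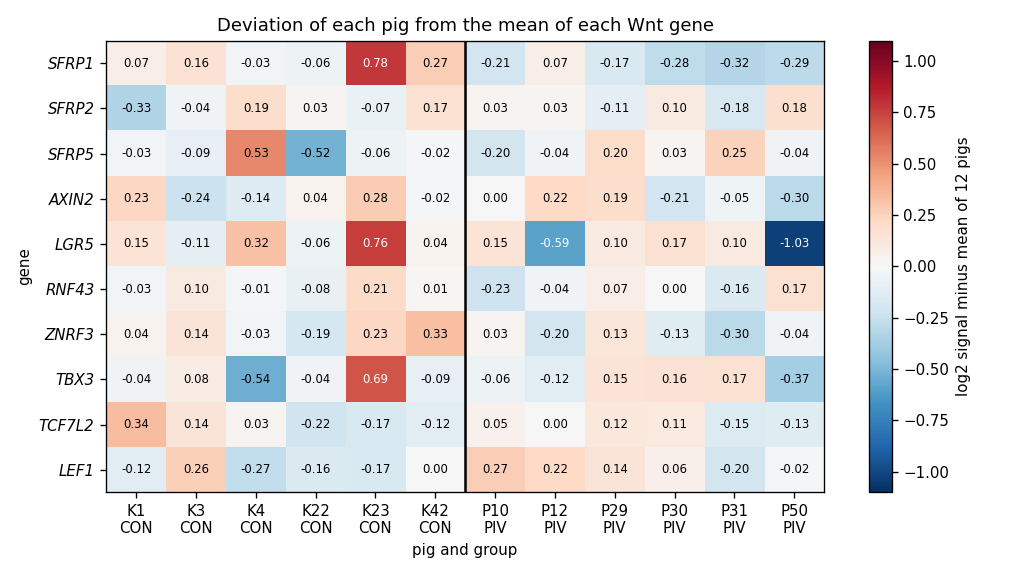
Log2 signal of each pig minus the mean of the 12 pigs for each Wnt gene, red above and blue below that mean, with the 6 pigs of group CON left of the line and the 6 of group PIV right of it. The column of pig K23 holds the highest value of 5 rows, and the lowest value of the map is LGR5 in pig P50 at −1.03.

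All 45 pairs of the 10 genes were compared across the 12 pigs. Pearson correlations lay between −0.56 and 0.64, with 26 above 0. None passed after adjustment (smallest adjusted p = 0.578 for Pearson's r, permutation test). An unadjusted p under 0.05 was reached by 1 pair with Pearson's r and by 3 pairs with Spearman's rho. SFRP1 with ZNRF3 was in both counts. As SFRP1 was picked on its group difference, which enters such a value, that pair is not taken as a finding. The pairs of SFRP1 are described without a test over all pigs. With ZNRF3, r was 0.64 and rho 0.71, and r was 0.70 within group CON, 0.01 within group PIV and 0.36 without pigs K23 and K42, so it did not hold within both groups. For SFRP1 and RNF43, r was 0.51 over all pigs, 0.89 in group CON and −0.03 in group PIV, and 0.18 over 11 pigs without K23. For SFRP1 and TBX3 r was 0.51 and rho 0.01, and r was −0.13 without K23, so that this pair rested on 1 pig. For SFRP1 and AXIN2 r was 0.50, and it was positive in both groups, at 0.52 in group CON and 0.77 in group PIV (exact permutation tests, p = 0.312 and 0.0389, not adjusted), but 0.27 without K23. The other pairs found by Spearman's rho did not involve SFRP1. SFRP2 and TBX3 ran against each other, with r = −0.50 and rho = −0.73 (permutation tests, p = 0.0968 and 0.0104, adjusted p = 0.578 and 0.268). This was −0.43 within group CON, −0.70 within group PIV and −0.74 without pigs K1 and P31. RNF43 and ZNRF3 had r = 0.50 and rho = 0.61 (permutation tests, p = 0.0944 and 0.0401, adjusted p = 0.578 and 0.602), with 0.62 within group CON, 0.32 within group PIV and 0.56 without pigs K23 and P10.

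Each gene was also compared with the mean of each of 8 lists of cell type markers, 80 relations in all. None passed after adjustment (smallest adjusted p = 0.0944, permutation test), and 7 had an unadjusted p under 0.05 where Pearson's r was used. That number includes SFRP1 with the markers of B cells and plasma cells, which is not taken as a finding. The strongest was RNF43 with the markers of B cells and plasma cells, with r = 0.81 and rho = 0.75 (permutation tests, p = 0.00118 and 0.00696, adjusted p = 0.0944 and 0.557). It was 0.67 in group CON, 0.90 in group PIV and 0.70 without pigs K23 and P10. Only 1 of the 9 measured genes of this list was not dim. With the same list SFRP1 had r = 0.57 and rho = 0.62 over all pigs, given without a test since its group difference enters them, and r was 0.61 within group CON, 0.06 within group PIV and 0.44 without pigs K23 and K42. JCHAIN, the joining chain of IgA and IgM, was the 1 gene of the 9 in this list that passed the filter. Its log2 FC was −0.47 (SE 0.13), with pig K23 highest at 6.96. That is 11.1% of the list, against 1.82% of all transcripts in either direction and 0.788% in that direction. The study had already named JCHAIN as lower in group PIV, so this share is a description and no test of the list. The median log2 FC of the 9 genes was −0.06, and 7 were below 0. The mean of the list was 4.38 to 4.55 in the CON pigs and 4.26 to 4.53 in the PIV pigs, and the part of these cells in the values of SFRP1 and RNF43 was not tested. Of the other lists, KLF1 alone passed the filter among 9 erythroid genes (11.1%, against 1.82% of all transcripts, or 1.03% in that direction). KLF1 was dim and higher in group PIV, and the study had already named it as regulated by pivalate. None passed among the 10 hepatocyte, 8 cholangiocyte, 12 stellate and fibroblast, 11 endothelial and 12 Kupffer cell and macrophage genes. Of all transcripts 1.82% passed in either direction. The medians of these lists, the erythroid one included, were −0.03 to 0.09.

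The genes whose values followed SFRP1 most closely from pig to pig, after the mean of each group had been subtracted, were searched among 7208 transcripts that were not dim and had 1 gene symbol. They were CHCHD10 (r = 0.84), C4H8orf37 (0.83), ZYG11B (0.83), SDC4 (0.82) and PLEKHA4 (0.82), over 12 pigs. Without pig K23 these values were 0.72, 0.55, 0.68, 0.60 and 0.87. SDC4 encodes a heparan sulfate proteoglycan of the cell surface, and none of the 5 passed the filter. For AXIN2 the closest was GPC4, another heparan sulfate proteoglycan, at r = 0.93 with and without pig K23, followed by EIF3H (0.91), SMIM7 (0.87), SCRN3 (0.85) and TALDO1 (0.85). For LGR5 they were PMVK (0.87), CDK6 (0.86), GPT2 (0.85), LOC100514456 (0.85) and LOC100522465 (0.84), and without pig K23 these values were 0.81 to 0.84. In all 5 pig K23 was highest and P50 lowest, as in LGR5, which follows largely from how they were picked. The r values over 12 pigs are the highest of 7208 correlations per gene and are given as a description.

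The wider pathway was covered by 8 lists with 100 measured genes in all, the 10 included, from ligands to targets. Of these, 3 genes (3%) passed the filter, 2 higher and 1 lower in group PIV, against 1.82% of all transcripts. Without SFRP1, which was picked on this contrast, it was 2 of 99 genes (2.02%), a share near that of all transcripts with this filter. An unadjusted p under 0.05 alone was reached by 6 of these 99 genes, against 3.63% of all transcripts. The median log2 FC was 0.00 and the range −0.40 to 0.31, and 55 genes were below 0 and 45 above. Besides SFRP1, the genes past the filter were BCL9L and FZD9. Without CON pig K1 the number was 1, SFRP1 alone, and without CON pig K4 it was 5, PORCN and RSPO4 being added.

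BCL9L, a co-activator that links beta-catenin to the transcription machinery, was higher in group PIV, but did not pass the filter without pig K1. It was 6.33 in pig K1, 6.70 in K3, 6.63 in K4, 6.48 in K22, 6.88 in K23 and 6.55 in K42, and 6.51 in pig P10, 6.83 in P12, 7.11 in P29, 7.03 in P30, 7.08 in P31 and 6.85 in P50. Pigs P29, P30 and P31 were above every pig of group CON. BCL9L had a log2 FC of 0.31 (SE 0.11, FC 1.24, limma p = 0.0152, adjusted p = 0.9996, exact permutation test over pigs, p = 0.0346). BCL9L lies on chromosome 9 from 44739145 to 44749614. FZD9, a Frizzled receptor, was dim, at 2.59 to 3.27 in group CON (median 3.07) and 2.97 to 3.49 in group PIV (median 3.35). Its log2 FC was 0.28 (SE 0.11, FC 1.22, limma p = 0.025, adjusted p = 0.9996, exact permutation test over pigs, p = 0.0346). FZD9 is named only through its mRNA description and has no chromosomal position. It did not pass without pig K1 or without pig P31.

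**Figure D5:**
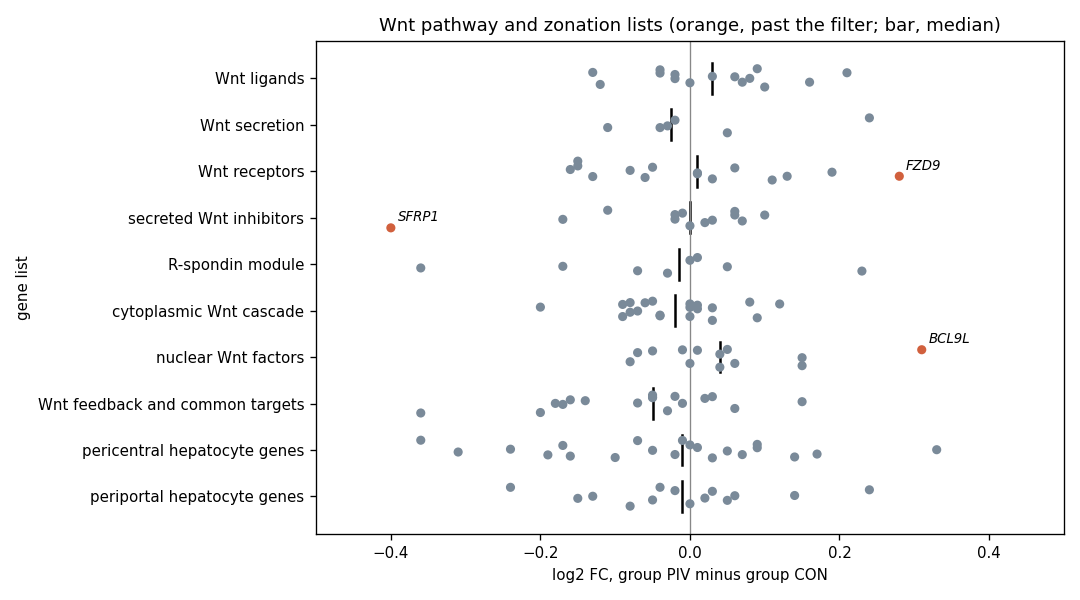
Log2 FC (horizontal axis, group PIV minus group CON) of the measured genes in the 8 Wnt pathway lists and in the 2 lists of hepatocyte zones (vertical axis), 1 point per gene, with a black bar at the median of each list and genes past the filter in orange. Only SFRP1, FZD9 and BCL9L are orange, and the medians lie between −0.05 and 0.04.

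Lists of the sizes below mostly hold 0 genes past the filter at the 1.82% share of all transcripts. Counts of 0 or 1 are therefore not read as results about a list, here or for the cell type markers above. Among the ligands, 0 of 15 measured genes passed. WNT5A, which mostly signals without beta-catenin, had the smallest p of this list, at 4.86 ± 0.15 in group CON and 5.07 ± 0.10 in group PIV (SD, n = 6 each). WNT5A was dim, and its log2 FC was 0.21 (SE 0.09, limma p = 0.0279, adjusted p = 0.9996, exact permutation test over pigs, p = 0.0195), below the fold limit. WNT2 (dim) and WNT9B, the ligands of the endothelial cells of the central vein in mice, had log2 FCs of 0.00 (SE 0.09) and 0.08 (SE 0.09). These 2 were named for that role after their values were seen. Of the 6 measured genes of Wnt secretion, 0 passed. PORCN, which attaches the lipid that Wnt proteins need, was at 5.06 ± 0.16 in group CON and 5.30 ± 0.13 in group PIV (SD, n = 6 each), with a log2 FC of 0.24 (SE 0.09, limma p = 0.0193, adjusted p = 0.9996, exact permutation test over pigs, p = 0.0303). The clusters of WNT5A and PORCN, and those of SP5, AHR and HSD17B13 below, have no chromosomal position in the annotation, like those of LGR5.

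FZD9 was the 1 gene past the filter among 15 measured receptors and co-receptors (6.67%). SFRP1, picked on this contrast, was the 1 among 13 secreted inhibitors (7.69%). The share of all transcripts was 1.82%. Without SFRP1, the log2 FCs of the inhibitors lay between −0.17 for FRZB and 0.10 for SOST, which are named here after their values were seen. Of the 8 measured genes of the R-spondin module 0 passed. RSPO4, an R-spondin ligand, was dim, at 4.56 ± 0.18 in group CON and 4.79 ± 0.17 in group PIV (SD, n = 6 each), with a log2 FC of 0.23 (SE 0.10). Of 20 genes of the cytoplasmic cascade 0 passed, with log2 FCs of −0.20 to 0.12, and CTNNB1, beta-catenin itself, was at 8.26 ± 0.13 in group CON and 8.21 ± 0.12 in group PIV (SD, n = 6 each), also named after its values were seen. Of 13 nuclear factors only BCL9L passed (7.69%, against 1.82% of all transcripts).

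The pathway had 17 measured feedback and target genes, 6 of which are among the 10 genes above. Of the 17, 0 passed the filter, against 1.82% of all transcripts. The log2 FC was below 0 for 13 of them and above 0 for 4, with a median of −0.05, while 47.7% of all transcripts were below 0 and their median was 0.01. SP5, a zinc finger factor and target of beta-catenin, was dim and had the smallest p. It was at 5.01 ± 0.18 in group CON and 4.81 ± 0.12 in group PIV (SD, n = 6 each), a log2 FC of −0.20 (SE 0.09, limma p = 0.0491, adjusted p = 0.9996, exact permutation test over pigs, p = 0.0541).

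The genes of the hepatocytes around the central vein, which depend on Wnt signals in mice, had 0 of 21 measured genes past the filter. Among the 21 are 5 of the 10 genes above, and the median log2 FC of the list was −0.01. As 1.82% of all transcripts passed, 0 is near that share for a list of this size. GLUL, glutamine synthetase, was at 9.84 ± 0.32 in group CON and 10.01 ± 0.31 in group PIV, and CYP2E1 at 11.80 ± 0.13 and 11.84 ± 0.09 (SD, n = 6 each), which were chosen as textbook markers after their values were seen. The CYP2E1 value of pig K23, 12.06, was the highest of group CON, and the next was 11.78. AHR, the aryl hydrocarbon receptor, had the smallest p of this list, with a log2 FC of −0.24 (SE 0.12, limma p = 0.0596, adjusted p = 0.9996, exact permutation test over pigs, p = 0.0866). Of 14 measured genes of the hepatocytes around the portal vein 0 passed, also with a median of −0.01. HSD17B13, a protein of lipid droplets, had the smallest p of this list, with a log2 FC of 0.24 (SE 0.09, limma p = 0.0227, adjusted p = 0.9996, exact permutation test over pigs, p = 0.0281), below the fold limit.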

How the data were processed

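Liver RNA of 12 pigs was hybridised to 1 Affymetrix porcine gene array each. The authors deposited log2 signals after background correction, normalization across arrays and summarisation with RMA in Affymetrix Expression Console 1.4 (version from the submitters' processing notes), in a sheet and again in a value table that differed by at most 0.0050. The deposited sheet also holds the authors' p-values, log2 ratios, fold changes and group means, which were not used. The 3 ribosomal RNA clusters were left out, and 25385 clusters were compared between groups with limma 3.58.1 in R 4.3.3, with Benjamini-Hochberg adjustment over all of them. Exact permutation tests were two-sided over all assignments of 6 of the 12 pigs, with a smallest possible p of 0.00216, and correlations used 100000 resamples over 12 pigs and exact tests within groups of 6. Genes were matched by gene symbol, then by the bracketed symbol of the mRNA description, then by RefSeq accession. Genes given by name were the 10 genes, list genes past the filter or else up to 3 of a list with the smallest p, and the 5 most alike of SFRP1, AXIN2 and LGR5, and others are marked where they stand. The genes and lists were chosen with earlier results of these data known. The fit was tested on simulated data. The number of arrays limits the precision. As alternatives, each pig was left out in turn, arrays were weighted, array medians set equal or quantiles normalized again, dim transcripts left out, other clusters, linear means or the value table used, FC limits of 1.1 and 1.5 applied, and limma replaced by the methods' t-test or run robustly with a variance trend. No sequences are shown.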

Additional observations from a re-analysis of the deposited data

Results flagged for a closer look

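Among the 10 Wnt genes, their other clusters, the genes that the naming rule took from the pathway and zone lists and the other list genes given with values, 80 groups of 6 values were searched for a pig far from the others, of which chance gives about 1 in 20. There were 2 such values (2.5%), not more than chance gives. GSK3B, the kinase that marks beta-catenin for breakdown, was at 7.32 in PIV pig P50, where the nearest other pig of group PIV was at 7.51 (gap over range 0.688). CYP2E1, a cytochrome P450 enzyme of the hepatocytes around the central vein, was at 12.06 in CON pig K23, where the nearest other pig of group CON was at 11.78 (gap over range 0.827). Both ratios exceed Dixon's critical value for 6 samples. Pig K23 was also highest in 5 of the 10 Wnt genes, and pig P50 lowest in LGR5 and AXIN2.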

How the results depend on the processing

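The log2 FC of SFRP1, described without a test, was −0.45 to −0.28 when 1 pig was left out and −0.42 to −0.20 otherwise, the smallest being that of its other cluster. At a FC limit of 1.5, 0 of the 10 genes, 0 of the 100 pathway genes and 25 of all transcripts passed. At 1.1 the numbers were 1 of the 10, 7 of the 100 and 921 of all transcripts (3.63%). Over all transcripts 161 passed among the brighter ones and 300 with the methods' t-test. With 1 pig left out the pathway lists had 1 to 5 genes past the filter and all transcripts 427 to 705, the latter without CON pig K42. The number of genes with K23 as the highest pig, checked with 3 alternatives chosen after seeing the data, was 5 in each. Of the small differences, that of SFRP2 was 0.00 with equal array medians and −0.01 after quantile normalization, and that of TCF7L2 was 0.01 after quantile normalization. With 1 pig left out, the log2 FC ranged from −0.05 to 0.06 for SFRP2, −0.03 to 0.18 for SFRP5, −0.10 to 0.00 for AXIN2, −0.13 to 0.12 for TBX3 and −0.05 to 0.07 for TCF7L2, so their directions are not settled, and the causes were not tested. LGR5, RNF43, ZNRF3 and LEF1 kept their direction in every setting run. No paired analysis was possible because the labels give the pigs of both groups no shared numbers. As no background was measured, how far dim signals such as AXIN2 and LEF1 can show a change is not known.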
